A study of Mus musculus with 3 samples.

Results

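Small insertions and deletions (indels) that fall inside protein-coding sequence were taken from the exome lists of 3 libraries of MB49, a mouse bladder cancer cell line. They comprised every entry on chromosomes 1 to 19 with an assigned coding effect, matched between lists on chromosome, position, reference and alternative allele. The union held 253 coding indels, out of 22791 indels on these chromosomes and 23347 in all. By library there were 182 of 11709 indels in parental MB49 (1.55%), 197 of 10334 in a derived line that the labels call Y chromosome positive (1.91%) and 180 of 12465 in a derived line called Y chromosome negative (1.44%). All 3 lines were grown in the same serum-supplemented medium, and the labels do not say how the derived lines were made or whether they are single clones. With 1 library per line there is no replicate check for any value below, and each Fisher exact test compared the reads of 2 libraries, not the conditions. The lists held 4, 9 and 0 indels on chromosome Y in parental, Y positive and Y negative, which goes with the genotype labels. The sample descriptions, MBN for Y positive and MBP for Y negative, would oppose the genotypes if their last letters stood for negative and positive, and an exchange would swap every value of the derived lines. Bladder markers cannot be read from exome DNA.

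An indel whose length is not a multiple of 3 shifts the reading frame: every later codon is read differently, and translation usually meets a stop codon soon after. An in-frame indel adds or removes whole amino acids and leaves the rest of the protein as it was. A stopgain is an indel that itself creates a stop codon. Frameshift peptides are studied in tumours because they differ from the normal protein, and a frameshift early in a coding sequence generally removes more of the protein than a late one.

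Coding indels were read deeply. The median depth of the parental, Y positive and Y negative ones was 79, 75 and 91 reads, against 9, 13 and 7 over all indels of the same lists. The depth ran from 2 to 1528, from 1 to 1517 and from 0 to 1718 reads, and 149, 158 and 158 coding indels reached 20 reads. Allele fraction below is the reads with the indel over all reads at the position, and percentages carry exact (Clopper-Pearson) 95% intervals, which cover counting error only. A list holds no reads for positions it leaves out, and an indel missing from it may be either truly missing or not called. The files name Ensembl transcripts and no gene symbols, so members are given by transcript and by their position in the mm9 genome build.

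The sequences of 3 long deletions are shown first because almost all of their bases lie outside the coding sequence. A deletion of 117 bases at chr1:74440474-74440590 in ENSMUST00000027367, one of 86 bases at chr1:173286748-173286833 in ENSMUST00000006579 and one of 89 bases at chr10:59762806-59762894 in ENSMUST00000105465 remove 2, 2 and 1 coding bases. Capitals mark the coding bases removed, and the letters are those of the deposited reference allele on the plus strand.
ENSMUST00000027367 deletion: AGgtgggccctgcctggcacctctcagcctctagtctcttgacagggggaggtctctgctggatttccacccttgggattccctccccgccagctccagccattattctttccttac
ENSMUST00000006579 deletion: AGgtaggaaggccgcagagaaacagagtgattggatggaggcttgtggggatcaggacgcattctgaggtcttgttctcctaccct
ENSMUST00000105465 deletion: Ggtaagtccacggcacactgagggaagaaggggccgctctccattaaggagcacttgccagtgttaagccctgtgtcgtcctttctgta

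Read from the first lower-case base around to the capitals, each of the 3 runs from GT to AG, the bases at the ends of most introns. Whether the flanking genome allows that placement was not tested, since no mm9 genome was used here. Among the 28 autosomal deletions of 50 bases or more in all lists, chromosome 18 left aside, 5 could be turned this way by at most 3 bases, on either strand, and these 3 were among the 7 coding ones. The other 2 deletions that reach past the coding sequence, 5 bases at chr16:4940475-4940479 and 173 bases at chr16:32754080-32754252, did not have these ends.

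These deletions were labelled frameshifts from the 1 or 2 coding bases they remove, and the 3 differed in how they were shared. The ENSMUST00000105465 deletion was in every list, with 98 of 330 parental reads, 85 of 278 Y positive reads and 84 of 300 Y negative reads. Its allele fractions of 0.297, 0.306 and 0.28 lay close together. The ENSMUST00000027367 deletion was listed in parental alone, with 44 of 200 reads, and the ENSMUST00000006579 deletion in parental alone, with 41 of 366. A 91-base insertion at chr10:59757856 in the same 3 transcripts as the 89-base deletion, ENSMUST00000105465, ENSMUST00000004316 and ENSMUST00000165878, lay at codon 239 in exon 6 of the first 2. It too was listed in parental alone, with 105 of 343 reads, an allele fraction of 0.306 beside 0.297 for the deletion in that library.

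The remaining long sequences are shown for what they add or remove inside the protein. The 73-base insertion at chr2:80368823 in ENSMUST00000111759 is printed on the coding strand, with the in-frame stop codon in capitals. The 63-base deletion at chr11:46220220-46220282 in ENSMUST00000063166 has its first repeat unit in capitals. The insertions of 78 bases at chr3:93007207 in ENSMUST00000098884 and 42 bases at chr3:92628259 in ENSMUST00000072363 are whole in-frame additions with no internal repeat found.
ENSMUST00000111759 stopgain insertion: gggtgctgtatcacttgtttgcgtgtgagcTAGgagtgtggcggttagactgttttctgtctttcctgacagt
ENSMUST00000063166 in-frame deletion: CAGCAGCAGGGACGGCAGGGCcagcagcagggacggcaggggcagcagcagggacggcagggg
ENSMUST00000098884 in-frame insertion: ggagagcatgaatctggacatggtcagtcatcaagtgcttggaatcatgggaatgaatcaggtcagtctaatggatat
ENSMUST00000072363 in-frame insertion: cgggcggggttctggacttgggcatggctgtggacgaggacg

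The stopgain insertion follows coding base 1563, and the stop is the 11th codon of the inserted sequence. It was homozygous in every list and supported by 26 of 26 parental reads, 29 of 29 Y positive reads and 28 of 28 Y negative reads. The 78-base insertion, at codon 873, was likewise homozygous, with 11 of 11, 90 of 90 and 119 of 119 reads. The 42-base insertion had 151 of 151, 119 of 119 and 151 of 151 reads. No reference read was counted at these 3 places in any library. The 63-base deletion consists of 3 copies of a 21-base unit, with 97.6% of bases equal to the base 1 unit earlier. It was listed at low depth in parental (5 of 9 reads) and Y positive (7 of 13) and not in Y negative. Both lists call it homozygous, although 4 parental and 6 Y positive reads carried the reference. The 29 coding indels of 12 bases or more outside chromosome 18 included 18 in-frame ones and 10 frameshifts. Of the 29, 3 had an internal repeat at a match of 80% or more, all 3 in frame. A frameshift deletion of AG repeats at chr11:48652479 has 10 bases and so was not counted. A 63-base in-frame insertion at chr19:21672824 in ENSMUST00000038830 was listed in Y positive alone, with 24 of 115 reads.

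The effect classes were dominated by frameshifts. The union held 122 frameshift deletions, 50 frameshift insertions, 57 in-frame deletions, 22 in-frame insertions and 2 stopgains. Frameshifts made up 172 of the 251 indels with a frame class, or 68.5% (62.4% to 74.2%). The parental share was 70.2% (62.9% to 76.7%), the Y positive share 72.8% (66% to 78.9%) and the Y negative share 74.3% (67.2% to 80.5%), and these intervals overlapped. Deletions outnumbered insertions, at 180 of 253 (71.1%).

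Single-base changes were the commonest kind, and 113 of the 172 frameshifts (65.7%) were of 1 base. A further 33 (19.2%) changed 2 bases. The single-base indels were deletions in 84 of 114 cases, and 24 of the 30 single-base insertions were written as a duplication of the base beside them. An A or T was the base in 61 of the 114. In-frame indels clustered at 3 bases, with 46 of 79 (58.2%), and 9 changed 6 bases. Long changes were present in both classes: 18 of 79 in-frame indels (22.8%) and 12 of 172 frameshifts (6.98%) spanned more than 10 bases.

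**Figure D1:**
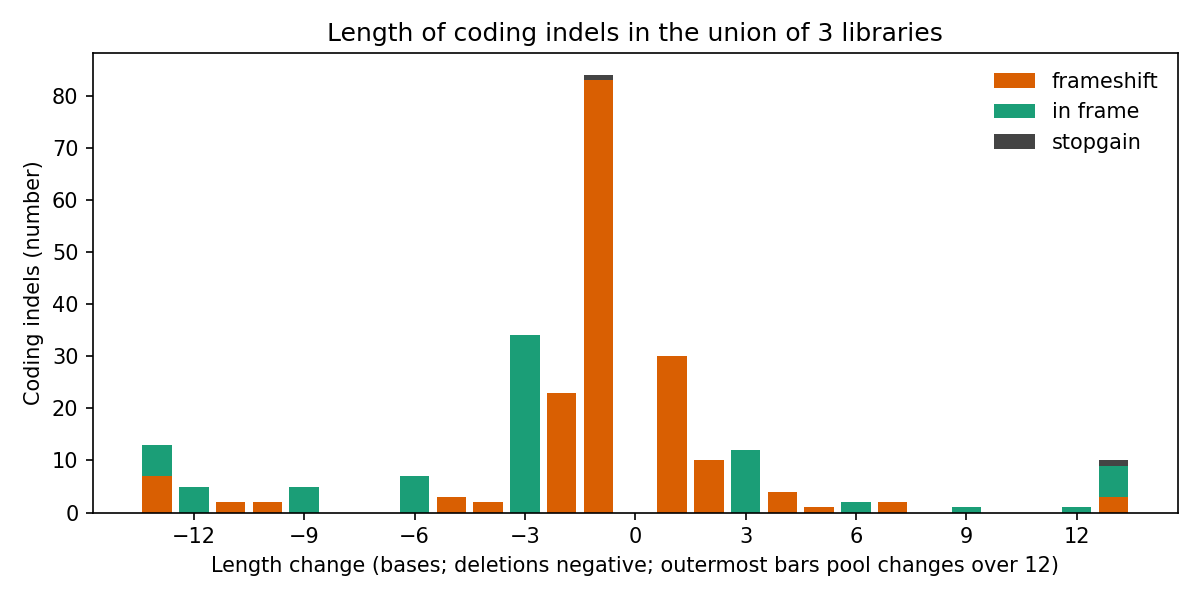
Number of coding indels in the union of 3 libraries (vertical axis) at each length change in bases (horizontal axis, deletions negative), coloured by effect; the outermost bars pool changes over 12 bases. Bars at 1 and 2 bases are frameshifts, apart from 1 stopgain, and those at 3, 6, 9 and 12 bases are in frame.

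Lengths divisible by 3 made up a larger share in coding sequence than in introns of the same lists. They made up 79 of 253 coding indels (31.2%, 25.6% to 37.3%), against 11.2% of intronic (10.6% to 11.9%), 9.11% of 3 prime untranslated (6.65% to 12.1%), 16.7% of intergenic (15.9% to 17.7%), 15.6% of 5 prime untranslated (9.64% to 23.2%) and 12.2% of non-coding RNA exon indels (9.91% to 14.8%). At a depth of 20 reads or more in at least 1 list, the coding share was 23.7% (17.9% to 30.3%) and the intronic share 5.6% (4.82% to 6.46%). Leaving out single-base changes at that depth, 47.4% of coding (37.2% to 57.8%) and 14.1% of intronic indels (12.3% to 16.2%) had such a length. The intervals of coding and intronic indels did not overlap in any of these settings. At this depth the 5 prime untranslated share was 6.82% (1.43% to 18.7%, 44 indels), and its interval overlapped that of coding indels.

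More than 1 in every 2 coding indels appeared in all 3 lists. These were 136 of 253 (53.8%, 47.4% to 60%), made up of 103 frameshifts, 32 in-frame indels and 1 stopgain. The parental list shared another 15 with Y positive and 5 with Y negative, and the derived lines shared 14 with each other. The private indels, in 1 list each, were 26 parental, 32 Y positive and 25 Y negative ones. Their median depths were 17.5, 10 and 44 reads, while indels in all 3 lists had a median of 96.

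The share found in all lists was larger for frameshifts than for in-frame indels when depth was not considered, at 103 of 172 (59.9%, 52.1% to 67.3%) and 32 of 79 (40.5%, 29.6% to 52.1%). At a depth of 20 or more in at least 1 list they were 96 of 147 (65.3%, 57% to 73%) and 28 of 46 (60.9%, 45.4% to 74.9%), and the intervals overlapped. At the same depth 64.4% of coding indels were in all 3 lists (57.3% to 71.2%), against 45.9% of intronic (44.2% to 47.7%), 52.8% of 3 prime untranslated (45.9% to 59.7%), 56.8% of 5 prime untranslated (41% to 71.7%) and 56.3% of non-coding RNA exon indels (51% to 61.4%). The coding interval overlapped all of these but the intronic one. Coding entries were deeper than the lists as a whole, and the part of depth in this difference was not tested.

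**Figure D2:**
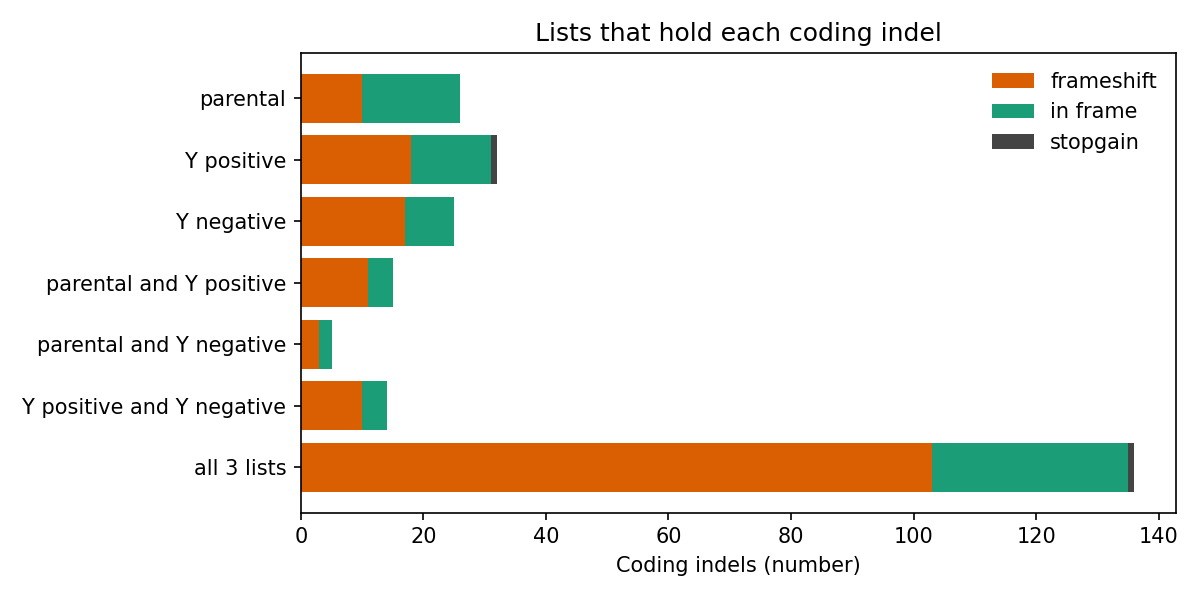
Number of coding indels (horizontal axis) in each combination of lists (vertical axis), coloured by effect. The bar for all 3 lists holds 136 indels, and no other combination holds more than 32.

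Genotypes differed between the effect classes among the 136 shared indels. Of the 32 in-frame ones, 25 were homozygous in every library (78.1%, 60% to 90.7%), and 7 were heterozygous in every library. Of the 103 frameshifts, 31 were homozygous throughout (30.1%, 21.5% to 39.9%) and 67 heterozygous throughout (65%, 55% to 74.2%). These intervals treat linked indels as independent. Homozygous indels gathered in 3 stretches, picked after their genotypes were seen, at 80 to 95 Mb of chromosome 2, 85 to 95 Mb of chromosome 3 and 40 to 55 Mb of chromosome 11, which held 13 of the 25 in-frame and 10 of the 31 frameshift ones. Outside them, 12 of 18 in-frame indels (66.7%, 41% to 86.7%) and 21 of 85 frameshifts (24.7%, 16% to 35.3%) were homozygous throughout. Short and longer frameshifts had like shares, with 22 of 74 single-base indels (29.7%) and 9 of 29 frameshifts over 1 base (31%) homozygous throughout. In all, 57 indels were homozygous in the 3 libraries, 54 of them without a single reference read, and 44 had at least 20 reads in every list. The 57 were 41.9% (33.5% to 50.7%) of coding indels in all 3 lists. For intronic indels this share was 44.6% (42.5% to 46.8%), for 3 prime untranslated 46.4% (38.3% to 54.6%) and for intergenic 29.4% (24.7% to 34.5%). At a depth of 20 or more in at least 1 list, the coding share was 38.4% (29.8% to 47.5%). The intronic share was then 36.1% (33.6% to 38.6%) and the intergenic share 21.7% (16.5% to 27.7%).

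The best covered homozygous frameshift was a single-base deletion at chr2:85448971, codon 32 of ENSMUST00000099921, with 209 of 209 parental reads, 185 of 185 Y positive reads and 223 of 223 Y negative reads. A single-base insertion at chr7:107603881, codon 2197 of ENSMUST00000051777, was in 199 of 199, 193 of 193 and 184 of 184 reads. A single-base deletion at chr9:105836538 in ENSMUST00000165165 followed, with 189 of 189, 164 of 164 and 202 of 202. These 3 frameshifts lay early (codon 32), late (codon 2197) and between (codon 704) by codon number, and none left a reference read. The other 7 of the 10 deepest lay at chr11:42850272, chr15:89017850, chr9:121402507, chr8:116657548, chr13:38114200, chr9:65127938 and chr17:47490866. Their depths ran from 62 to 155 reads per library, and all were at an allele fraction of 1 except the last, which had 92 of 94 reads in parental. The lists annotate the one at chr15:89017850 as splicing as well as exonic, as they do some other homozygous frameshifts.

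Homozygous in-frame indels included a 27-base deletion at chr3:86152726-86152752 in ENSMUST00000082226, with 147, 159 and 193 reads in parental, Y positive and Y negative and none for the reference. A 15-base deletion at chr1:174058806-174058820 in ENSMUST00000075895 had 89, 69 and 102 such reads, and a 6-base deletion at chr7:148879259 in ENSMUST00000026590 had 141, 115 and 113. A 59-base frameshift deletion at chr2:86296017-86296075, codon 118 of ENSMUST00000099885, was homozygous on 13, 18 and 19 reads.

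The homozygous indels were unevenly placed, and so were the heterozygous ones. When chromosomes were divided into windows of 10 Mb, 72 windows held a coding indel found in all 3 lists, and 33 of them held a homozygous one. Only 4 windows held 4 or more, and together they had 21 homozygous and 9 heterozygous indels. On chromosome 3, the window from 80 to 90 Mb held 4 of 4 homozygous and that from 90 to 100 Mb held 5 of 5, all in frame. Among these 5, a 30-base insertion at chr3:92592999 was listed as homozygous on 3 parental, 3 Y positive and 0 Y negative reads. The chromosome 2 window from 80 to 90 Mb held 6 homozygous of 8, and the chromosome 11 window from 50 to 60 Mb held 6 of 13, the other 7 heterozygous. Heterozygous indels also gathered elsewhere, with 7 of 9 from 90 to 100 Mb of chromosome 1. They were 6 of 6 from 30 to 40 Mb of chromosome 16 and 4 of 4 from 20 to 30 Mb of chromosome 17. Indels of 1 window are not independent observations.

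Heterozygous frameshifts kept similar allele fractions from library to library. Among the 65 that were heterozygous in all 3 lists at a depth of 20 or more in each, the median allele fractions in the 3 libraries were 0.401, 0.406 and 0.411. The range was 0.139 to 0.673, 0.115 to 0.707 and 0.118 to 0.704. The median spread of 1 indel over the 3 libraries was 0.0764. An allele fraction between 0.4 and 0.6 in every library was found for 22 of the 65, and 5 lay below 0.25 in every library. The 7 in-frame indels of this kind had medians of 0.22, 0.259 and 0.245. The 65 frameshifts include 7 of ENSMUST00000073543 and other close neighbours, so they are not independent observations.

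**Figure D3:**
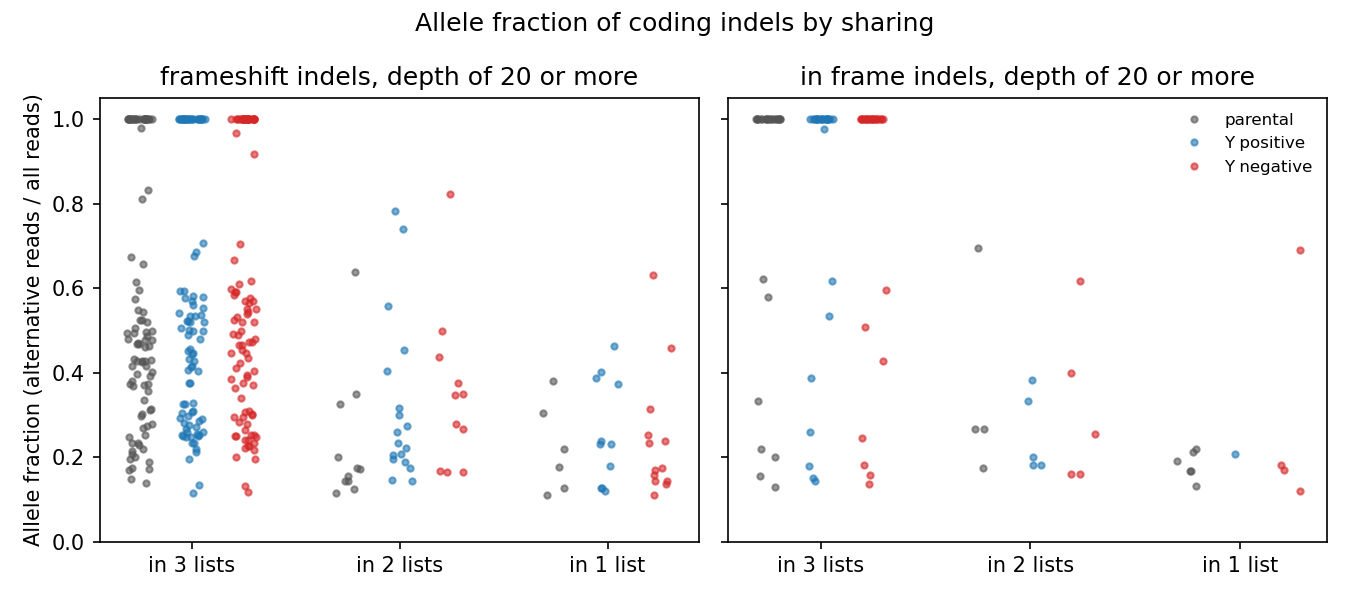
Allele fraction (vertical axis) of coding indels with 20 or more reads in the library plotted, each point 1 indel in 1 library, separated by the number of lists that hold it and by effect, with a random sideways offset. Indels in 3 lists fall at 1 or spread widely below it, and those in 1 list mostly lie below 0.4.

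Pairs of libraries were compared at each indel with 1 alternative allele listed in both at a depth of at least 20, by a two-sided Fisher exact test with Benjamini-Hochberg adjustment over all such sites. Between Y negative and Y positive, 0 of 132 coding indels passed an adjusted p of 0.05, against 0.794% of all 2645 sites. An unadjusted p under 0.05 was found for 10 of them (7.58%), against 6.2% of all sites. Between Y positive and parental, 0 of 130 passed, against 0.874% of 2745 sites, and 9 (6.92%) had an unadjusted p under 0.05, against 6.23%. Between Y negative and parental, 0 of 125 passed, against 0.302% of 2651 sites, and 12 (9.6%) had an unadjusted p under 0.05, against 5.47%. Only Fisher's exact test was run, and the smallest adjusted p was 0.117, 0.261 and 0.277 in the same order.

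The median absolute difference in allele fraction was 0.0198 between Y negative and Y positive, 0.0229 between Y positive and parental and 0.0182 between Y negative and parental. Over all tested sites it was 0.0333, 0.034 and 0.0313. Coding entries were deeper than the lists as a whole, and the part of depth in this gap was not tested. In the first comparison the allele fraction was higher in Y negative at 43 coding indels, lower at 42 and equal at 47. Against parental it was higher in Y positive at 55, lower at 31 and equal at 44, and higher in Y negative at 50, lower at 30 and equal at 45. Neighbouring indels on the same reads are counted separately here, and these counts were not tested. The 3 comparisons share libraries, so they are not independent.

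The largest differences below are those among sites with 1 alternative allele and a depth of at least 20 in both libraries. Between Y negative and Y positive, a 2-base deletion at chr10:62025866 in ENSMUST00000162759 led, with 9 of 24 reads against 8 of 39 (allele fractions 0.375 and 0.205, Fisher exact test, adjusted p = 1). Next came a single-base deletion at chr7:105343070 in ENSMUST00000098278, with 14 of 53 against 26 of 60 reads (adjusted p = 0.947 by the same exact test). At chr11:50861907 in ENSMUST00000073543 the counts were larger, 130 of 279 against 70 of 215, and the adjusted p of the exact test was 0.14. Its neighbour at chr11:50861909 differed by 0.137 (adjusted p = 0.172 by the exact test). None of these passed.

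Against parental, the largest difference of Y positive among these sites was a single-base deletion at chr4:13787075 in ENSMUST00000006761, with 65 of 92 reads against 34 of 67 (Fisher exact test, adjusted p = 0.476). A 2-base deletion at chr1:163081099, codon 26 of ENSMUST00000052245, had 47 of 58 reads in parental, 32 of 32 in Y positive and 30 of 30 in Y negative. It was listed as heterozygous in parental and homozygous in both derived lines, and neither comparison with parental passed (exact test, adjusted p = 0.335 and 0.633). The same pattern of genotypes was listed for a single-base deletion at chr8:12429968, codon 13 of ENSMUST00000080795, on 20 of 24, 30 of 30 and 30 of 31 reads (exact test, adjusted p = 0.666 for Y positive and 1 for Y negative). Between Y negative and parental the largest among these sites was at chr9:38307158 in ENSMUST00000052901, with 28 of 42 against 23 of 49 reads (exact test, adjusted p = 1). Others among the 5 largest of a pair, at chr4:88953032, chr3:37024689, chr17:23448158 and chr4:68424008, differed by 0.146, 0.158, 0.171 and 0.129, with adjusted p values of the exact test of 1, 0.744, 0.874 and 1.

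**Figure D4:**
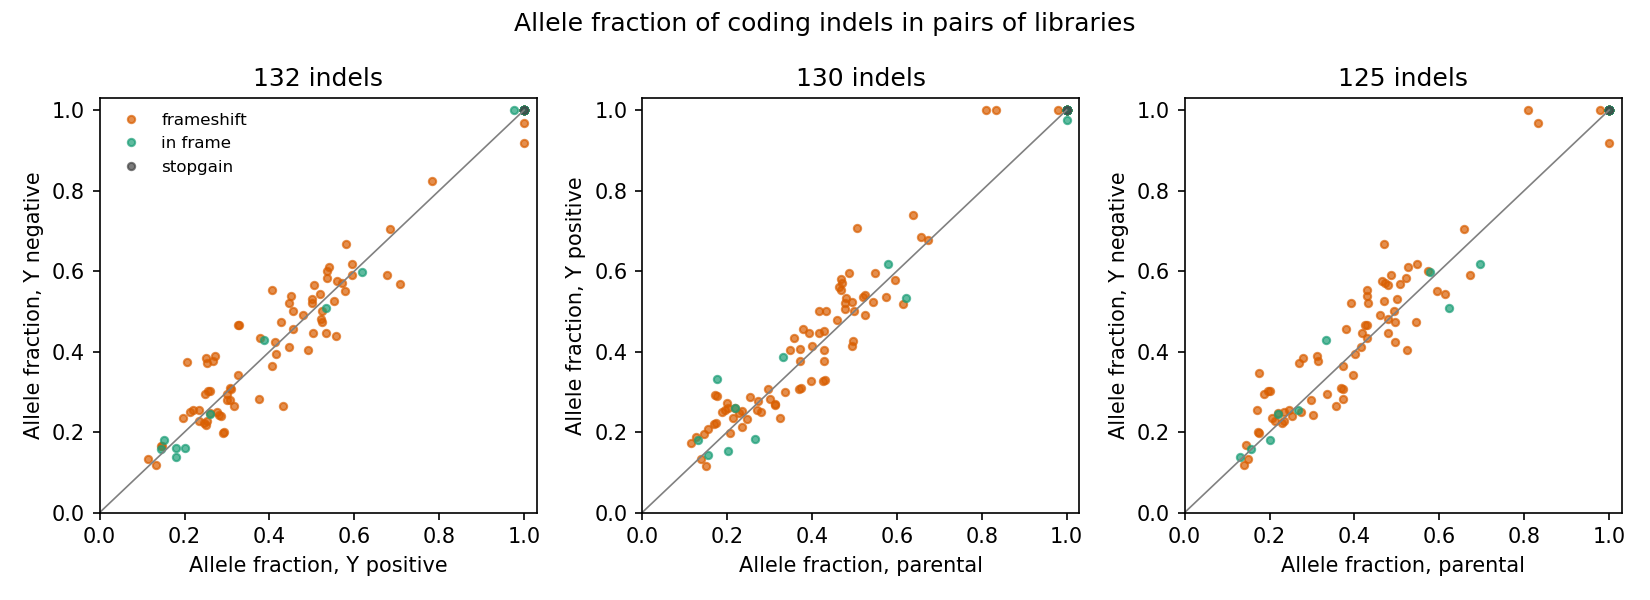
Allele fraction of each coding indel in 1 library against another (both axes from 0 to 1), for the 132, 130 and 125 indels tested in the 3 pairs, coloured by effect, with the line of equal fractions. Points lie along the line in all 3 panels, and no coding indel passed the adjusted exact test.

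Private indels were mostly shallow or of low allele fraction. At a depth of 20 or more there were 12 parental, 12 Y positive and 17 Y negative ones, and 11 of these 41 also reached an allele fraction of 0.25. The deepest of the 4 Y positive ones among these 11 was a single-base deletion at chr7:111338113, codon 203 of ENSMUST00000060440, with 88 of 219 reads. The other 3 in Y positive were also single-base frameshift deletions: chr7:9869725 in ENSMUST00000066317 (19 of 49 reads), chr11:85635526 in ENSMUST00000149662 (25 of 54) and chr17:18211152 in ENSMUST00000097386 (22 of 59). Neither of the other lists had any indel within 1000 bases of these 4, so their depth there is not known.

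Y negative had 5 private indels of this kind. Single-base frameshift deletions lay at chr6:125118174 in ENSMUST00000112291 (29 of 92 reads), chr10:20045953 in ENSMUST00000172309 (11 of 24) and chr19:20863870 in ENSMUST00000025658 (24 of 95). A 6-base in-frame insertion at chr16:32752958 in ENSMUST00000096106 had 47 of 68 reads. The last, a 2-base deletion of AA at chr7:51200694, codon 45 of ENSMUST00000078897, had 24 of 38 reads. At the same position the other lists held a deletion of 1 A, with 30 of 47 reads in parental and 37 of 50 in Y positive, so this place was altered in every library but by different lengths.

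Parental had 2, the 91-base insertion given above and a single-base deletion at chr6:23360016 in ENSMUST00000115356 (8 of 21 reads). Of its 26 private indels, 14 were 3-base deletions (53.8%, 33.4% to 73.4%), of which 8 removed a unit of the AGC and CTG family. The median allele fraction of the 14 was 0.227, and only 5 of them reached 20 reads. Y positive had 6 of 32 (18.8%, 7.21% to 36.4%) and Y negative 5 of 25 (20%, 6.83% to 40.7%), with 2 of that family each, and the intervals overlap that of parental. All of these private 3-base deletions were heterozygous. Among the 7 such deletions in all 3 lists, 0 were of the AGC family and 5 of the AAG and CTT family. At a median depth of 16.5 reads for the parental ones, absence from the other lists says little about those lines.

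Different lengths at the same place were found elsewhere too. At chr3:78696072 in ENSMUST00000164923, parental was homozygous for a deletion of 4 T (58 of 58 reads), whereas the other libraries listed 2 alternative alleles. In Y positive the 4-base deletion had 32 of 55 reads and a 3-base deletion 21, and in Y negative they had 32 and 26 of 65. The first is a frameshift and the second in frame. At chr4:148045503 in ENSMUST00000105698, 5 of 5 parental reads lacked GG and 5 of 5 Y positive reads lacked 1 G, and at chr11:48652479 in ENSMUST00000109215, 12 of 12 Y positive reads lacked 12 bases and 3 of 3 Y negative reads lacked 10, in a run of AG repeats. At the last 2 places the depths are too low to tell the lines apart.

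Some frameshifts lay so close together that their lengths added up to a multiple of 3. Counting neighbours within 100 coding bases of the same transcript and in the same list, there were 17 such groups with 34 members, 33 of them frameshifts (19.2% of 172) and 1 a stopgain. A group was the shortest run whose lengths added up in this way. A further frameshift close by, outside the run, was not counted in the sum. An insertion in ENSMUST00000073543 was in 2 groups. Of the 17, 10 were in all 3 libraries, 2 in 2 and 5 in 1. The neighbours were at most 5 coding bases apart in 14 groups, and in 10 groups the lengths cancelled exactly. Within a library the allele fractions of the neighbours differed by at most 0.05 in 15 groups. The lists annotate each indel alone and do not record whether neighbours lie on the same molecule, so the joint effect on the protein was not tested.

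At chr1:90112733 in ENSMUST00000073049, a deletion of T is followed 3 coding bases later by a deletion of AT. In library order the first had 163 of 695, 167 of 661 and 164 of 724 reads, and the second had 165 of 719, 168 of 680 and 166 of 747. Allele fractions stayed between 0.222 and 0.253, and both deletions together remove 3 bases. In Y positive, an insertion of TA at chr5:31503045 and one of 40 bases at the next base, both at codon 119 of ENSMUST00000031562, each had 6 of 26 reads and together add 42 bases. The stopgain at chr4:146886729, a 1-base deletion in ENSMUST00000063704, came 3 coding bases after a 1-base insertion, and each had 2 of 5 reads in Y positive. The lengths of those 2 changes cancel. At chr7:148825726 in ENSMUST00000062451, an insertion of CC and a deletion of TG 5 coding bases away were listed in Y negative with 65 of 471 and 51 of 462 reads. Deletions of 1 and 23 bases at chr10:45067675 in ENSMUST00000095715 had 17 of 135 and 16 of 138 parental reads, and 28 of 148 and 27 of 155 Y positive reads.

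A pair at chr2:87149078 in ENSMUST00000090717 and one at chr11:50841119 in ENSMUST00000072152 were homozygous in every library. In the first, a deletion of CT and an insertion of CA 2 coding bases later had 28, 31 and 44 and 30, 31 and 46 reads, with none for the reference. In the second, an insertion of CT and a deletion of GG had 29, 19 and 32 and 22, 13 and 31 reads, again without a reference read.

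**Figure D5:**
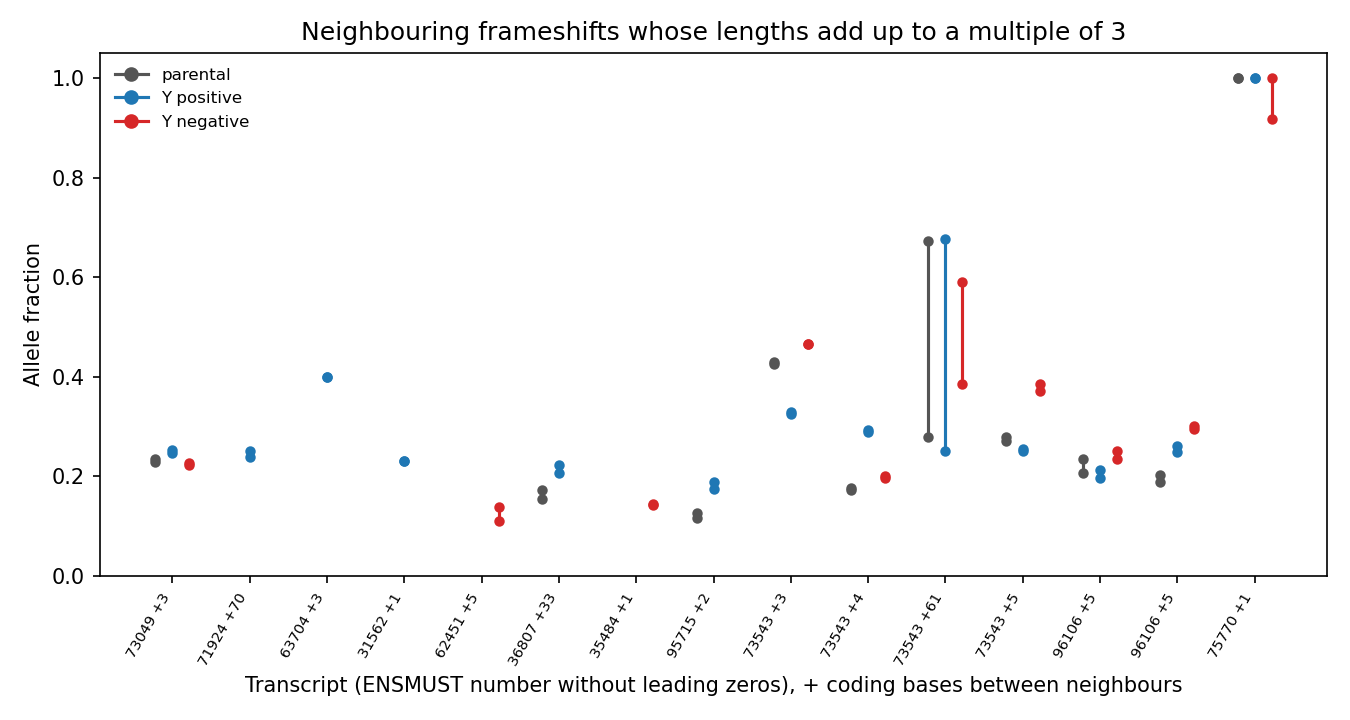
Allele fractions (vertical axis) of neighbouring indels whose lengths add up to a multiple of 3, for the 15 groups that are not homozygous in every library (horizontal axis: transcript and coding bases between neighbours), with a line from the lowest to the highest member in each library. Members of a group mostly coincide, and the group 61 bases apart in ENSMUST00000073543 spans 0.279 to 0.673 in parental.

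Transcripts with several members accounted for part of these groups. The first-named transcripts numbered 200, of which 172 had 1 member, 20 had 2 and 8 had 3 or more, with 41 members between them. ENSMUST00000073543, from chr11:50861907 to chr11:50862537, had 7 frameshifts in exon 1, all listed in every library, and their lengths summed to -1. They formed 4 of the groups. The pair at codons 99 and 100 had parental allele fractions of 0.425 and 0.43, Y positive ones of 0.326 and 0.329, and 0.466 for both in Y negative. The pair at codons 201 and 202 was lowest in parental (0.176 and 0.172) and highest in Y positive (0.29 and 0.293), with 0.197 and 0.2 in Y negative. At codons 307 and 309 the fractions were 0.279 and 0.27, 0.25 and 0.254, and 0.385 and 0.372. Within each of these 3 pairs the fractions lay close together, while the order of the libraries was not the same for every pair. The seventh, a T deletion at codon 287, had 210 of 312, 176 of 260 and 185 of 313 reads. It forms the remaining group with the insertion at codon 307, which is thus counted in 2 groups. The fractions of that group lay far apart, at 0.673 and 0.279 in parental.

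None of the differences between libraries in this transcript passed adjustment. The insertion at codon 202 had the largest of them against parental, with 54 of 184 Y positive reads against 39 of 227 parental reads (adjusted p = 0.261 by the exact test).

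ENSMUST00000096106 on chromosome 16 had 8 members, of which 6 were in every list. Their lengths added up to -131 bases, counting 2 bases of the 173-base deletion that lie outside the coding sequence. The members differed in allele fraction and in the lists that held them, so this sum need not be the change of any copy. A trio at codons 1875 to 1877 (an insertion of GG and 2 deletions of T) cancelled in length. Its allele fractions ran from 0.188 to 0.202 for parental, from 0.249 to 0.261 for Y positive and from 0.295 to 0.302 for Y negative. The pair at codons 809 and 811 lay at 0.197 to 0.25 over the libraries. The 173-base deletion, labelled in frame because it removes 171 coding bases, had 97 of 156, 148 of 277 and 145 of 285 reads. The 36-base insertion at chr16:32753437 was listed as homozygous in parental with 41 of 59 reads and heterozygous in Y negative with 29 of 47, and was absent from the Y positive list.

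ENSMUST00000027367 on chromosome 1 had 6 members, including the 117-base deletion. Deletions of 2 bases at chr1:74441416 and 11 bases at chr1:74441420 had 73 of 198 and 76 of 203 parental reads, 59 of 192 and 60 of 194 Y positive reads, and 68 of 220 and 68 of 221 Y negative reads. Their sum is not a multiple of 3. ENSMUST00000036807 on chromosome 8 had 5 frameshifts, 3 of them in parental and Y positive alone. These 3 deletions, of 1, 2 and 11 bases, had 26, 29 and 29 reads in parental and 32, 36 and 36 in Y positive, at depths of 144 to 200 reads. The first 2 are a group counted above. With the third, which had like read counts, the lengths do not add up to a multiple of 3.

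In ENSMUST00000035484 on chromosome 9 no member was in more than 1 list. Y positive held deletions of 1 base at chr9:103257520 (30 of 236 reads) and chr9:103257522 (30 of 237). Y negative held a deletion of GG and an insertion of 5 T at chr9:103257570 and chr9:103257571, with 25 of 172 and 22 of 154 reads. All 4 had allele fractions between 0.127 and 0.145.

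ENSMUST00000171996 on chromosome 17 had 4 single-base deletions. The deepest, at codon 235, had 133 of 332, 147 of 354 and 141 of 358 reads, fractions of 0.401, 0.415 and 0.394. ENSMUST00000085631 on chromosome 9 had a 6-base deletion in every list (71 of 455, 56 of 388 and 70 of 441 reads) and 2 single-base insertions beside it, listed in both derived lines and not in parental, with 56 reads each in Y positive and 70 each in Y negative. ENSMUST00000043896 on chromosome 8 had 3 in-frame insertions, all at depths of 4 to 6 reads.

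A pair of transcripts 36988 bases apart on chromosome 2 carried the same change. An insertion of GTT at codon 154 was listed at chr2:89470592 in ENSMUST00000099769 and at chr2:89507580 in ENSMUST00000099767. It was homozygous in the first, on 60, 62 and 50 reads, and heterozygous in the second, on 39 of 193, 22 of 145 and 27 of 149. A deletion of G at codon 64 was likewise listed at chr7:105343070 in ENSMUST00000098278 and, except in Y negative, at chr9:69298663 in ENSMUST00000071565. Reads of near-identical gene copies can be placed at either copy, and whether that happened for either pair was not tested.

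By place in the protein, frameshifts and in-frame indels covered similar ranges. The median codon was 182 for frameshifts (7 to 4342) and 154 for in-frame indels (4 to 3869). Codons below 100 held 51 of 172 frameshifts (29.7%, 22.9% to 37.1%) and 31 of 79 in-frame indels (39.2%, 28.4% to 50.9%), and the first exon held 32% and 29.1%. The earliest frameshift, a 2-base deletion at chr12:75417362, codon 7 of ENSMUST00000110441, was listed in Y positive alone with 15 of 84 reads. The next was a single-base deletion at codon 11 of ENSMUST00000085704, with 18 of 84, 19 of 81 and 15 of 66 reads. The latest was a single-base insertion at chr5:137839497, codon 4342 and exon 67 of ENSMUST00000164178, with 42 of 113, 43 of 106 and 46 of 126. Protein lengths were not used here, so codon numbers are not shares of the protein.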

How the data were processed

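Exome-captured genomic DNA of 3 MB49 lines was read in pairs on Illumina instruments, per the labels' protocols. The submitters' processing notes name BWA and Picard, without versions, and the builds mm9 and mm10. Positions in the lists reach 197068017 on chromosome 1 and 152408095 on chromosome 7, past the last GRCm38 genes (195291439 and 145324059), so they were read as mm9. The variant caller is not given in the sources used here. A deposited list held 1 library's indels, all marked PASS, with read counts by the authors for each allele and the depth. The authors' phred-scaled quality score was not used as a filter. Among 21975 Ensembl transcripts, 0 were found in the RefSeq table, so no symbols are given and the planned gene lists could not be applied.

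Effect, codon and exon are those of the first transcript named. Allele fractions were compared at a depth of at least 20 (alternatives 10 and 50) with Fisher exact tests, two-sided, using Benjamini-Hochberg adjustment at 0.05, in Python 3.11.15 with pandas 2.3.3, scipy 1.17.1 and matplotlib 3.10.9. The scan was tested on simulated data. Named indels were all stopgains, private indels with depth 20 and allele fraction 0.25, the 10 longest, up to 10 frame-restoring groups, the 10 deepest homozygous frameshifts, the 5 largest differences per pair, the 3 lowest and 3 highest codons, and transcripts with 3 or more members. Others were chosen after their values were seen. The members and lists were chosen with earlier results of these data known. Reads carry no molecular identifiers, so intervals cover counting error only.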

Additional observations from a re-analysis of the deposited data

How the results depend on the processing

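Over 35 alternatives to the main results, 26 left the value within its interval or within 1.5 times of the count. Without single-base A or T indels the frameshift share of the parental, Y positive and Y negative lists was 59.4%, 62.9% and 64.1%, lower by construction since all single-base indels but 1 were frameshifts. In the same setting, 3 sites passed the Fisher exact test between Y negative and Y positive, 8 between Y positive and parental and 3 between Y negative and parental, against 21, 24 and 8 with them. Fewer sites were tested. Where some library reached 20 reads, 64.4% of coding indels were in all 3 lists, against 53.8%. Without a minimum depth, private coding indels numbered 26 in parental and 32 in Y positive, against 12 and 12. In the depth and base settings run, 0 coding indels passed the Fisher exact test in any pair. These settings change which sites are adjusted over, not the reads of a site. Of the 15 named allele fraction differences, 8 could be tested at a depth of 50 and 10 without single-base A or T indels, with a smallest adjusted p of 0.0998. Leaving out the 3 stretches, an alternative chosen after seeing the data, kept the homozygous shares within their intervals. Frame-restoring groups numbered 14 within 30 coding bases and 21 within 300. No paired analysis was possible because each line has 1 library. At private indels of low depth, absence from the other lists cannot be told apart from lack of reads.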
